A study of Mus musculus with 6 samples.

Results

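CC chemokines and fractalkine are small secreted or shed proteins that draw leukocytes along a gradient by binding G-protein-coupled receptors. CC chemokines carry a pair of adjacent cysteines near the start of the mature protein, whereas fractalkine (Cx3cl1), which is made as a membrane protein on a mucin stalk, has other residues between these cysteines. Stromal cells are a known source of several of them in inflamed gut, among them the monocyte attractant Ccl2 and the eosinophil attractant Ccl11. The genes described here were chosen by symbol and number 10: Ccl2, Ccl3, Ccl4, Ccl5, Ccl7, Ccl8, Ccl11, Ccl19, Ccl20 and Cx3cl1. Of these, 9 had a row among the 20327 gene symbols counted. Ccl20, the ligand of Ccr6, was not analysed here.

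The cells came from the colon of C57BL/6 mice that carried the Il11-Egfp reporter transgene and were 9 to 15 weeks old. The mice drank 1.5% dextran sulfate sodium (DSS, which injures the colonic epithelium and causes colitis) for 5 days and then plain water, and on day 7 DAPI-negative cells lacking Ter119, CD45, CD31 and EpCAM were sorted by the reporter into IL-11⁺ cells (EGFP⁺) and IL-11⁻ cells (EGFP⁻), with 3 libraries of each. Both groups carried the reporter and had received DSS, so that the comparison asks how IL-11⁺ cells differ from the other cells of the same gate. RNA was read by 5′Tag-seq, which counts tags from the 5′ ends of polyadenylated transcripts. Totals were 1057170, 1078179 and 1169817 tags in EGFP⁻ replicates 1 to 3 and 1046538, 1022851 and 1049048 tags in EGFP⁺ replicates 1 to 3. Il11 itself had 28, 51 and 89 tags in the EGFP⁻ libraries and 1357, 732 and 2658 tags in the EGFP⁺ libraries, in the direction of the labels.

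Of the 9 chemokine genes with a row, Ccl2, Ccl7, Ccl8 and Ccl11 were clearly detected. Ccl19 had up to 22 tags in a library, and the other 4 had at most 9. The level of Ccl2 was 1.73-fold higher in EGFP⁺ cells, and for Ccl7, Ccl8 and Ccl11 the libraries of the groups overlapped. For the comparison, edgeR's quasi-likelihood test was fitted over the 9334 genes that reached 10 tags in 3 or more of the 6 libraries, and a call required a Benjamini-Hochberg adjusted p under 0.05 together with a fold change above 2. By this rule 3.44% of all tested genes were called higher and 6.37% lower in EGFP⁺ cells. Of the 10 chemokine genes, 4 were tested and 0 were called in either direction. DESeq2 also called 0 of the 4, and 1 of them, Ccl2, had an unadjusted p under 0.05 in edgeR's quasi-likelihood test, as did 26.7% of all tested genes. The median log2 fold change of the 4 tested chemokines was 0.59, against -0.01 over all tested genes. It was 0.93 without EGFP⁻ replicate 3 and 0.07 without EGFP⁺ replicate 3.

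Ccl2 attracts monocytes through the receptor Ccr2. It had 492, 583 and 1024 tags in the EGFP⁻ libraries and 816, 866 and 1550 tags in the EGFP⁺ libraries. On the normalized CPM scale (tags per 1000000 after scaling between libraries), these were 470, 549 and 841 CPM against 865, 879 and 1478 CPM. On this scale the lowest EGFP⁺ library lay just above the highest EGFP⁻ library and the groups did not overlap. In unscaled tags they did, since EGFP⁻ replicate 3 (1024) lay above EGFP⁺ replicates 1 and 2 (816 and 866). The separation thus depended on the scaling, with TMM factors of 1.066 for EGFP⁻ replicate 3 and 0.918 for EGFP⁺ replicate 1. The means were 620.0 ± 195 CPM in EGFP⁻ and 1074 ± 350.0 CPM in EGFP⁺ cells (SD, n = 3). The log2 fold change was 0.79 (SE 0.232, 95% interval 0.30 to 1.28), with an adjusted p of 0.0251 in edgeR's quasi-likelihood test, so Ccl2 passed the threshold on p and missed that on fold change. When scaled by library total alone it also missed the threshold on p (log2 fold change 0.72, adjusted p 0.0564).

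In unpaired fits, the position of Ccl2 against the thresholds rested on single libraries. Without EGFP⁻ replicate 3 its log2 fold change was 1.06 with an adjusted p of 0.00417 in edgeR's quasi-likelihood test, and Ccl2 was then called higher. Its adjusted p was over 0.05 without EGFP⁻ replicate 1 (0.158), without EGFP⁻ replicate 2 (0.151) and without EGFP⁺ replicate 3 (0.143), where the log2 fold change was 0.61, 0.70 and 0.49. The direction was the same in all of these fits.

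Ccl7 binds several CC receptors and, like Ccl2, attracts monocytes. It had 380, 362 and 1018 tags in the EGFP⁻ libraries and 430, 491 and 944 tags in the EGFP⁺ libraries. The groups overlapped, since EGFP⁻ replicate 3 lay above EGFP⁺ replicates 1 and 2. The means were 513 ± 280 CPM and 618 ± 245 CPM (SD, n = 3), and the log2 fold change of 0.27 (SE 0.294, 95% interval -0.35 to 0.88) had an adjusted p of 0.620 in edgeR's quasi-likelihood test. Its value depended on single libraries: without EGFP⁺ replicate 3 it was -0.10, without EGFP⁻ replicate 1 or 2 it was 0.05 or 0.03, and without EGFP⁻ replicate 3 it was 0.79 with an adjusted p of 0.0404, still under 2-fold.

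Ccl11, or eotaxin, attracts eosinophils through Ccr3. It had 591, 675 and 1492 tags in the EGFP⁻ libraries and 839, 996 and 1351 tags in the EGFP⁺ libraries. Here too EGFP⁻ replicate 3 reached into the range of the EGFP⁺ libraries, and the groups overlapped. The means were 808 ± 363 CPM and 1063 ± 205 CPM (SD, n = 3), and the log2 fold change of 0.39 (SE 0.241, 95% interval -0.11 to 0.90) came with an adjusted p of 0.324 in edgeR's quasi-likelihood test. Without EGFP⁻ replicate 3 the log2 fold change was 0.81 with an adjusted p of 0.0093, still under 2-fold. It was 0.17 without EGFP⁻ replicate 1 (adjusted p 0.765) and 0.24 without either EGFP⁻ replicate 2 or EGFP⁺ replicate 3.

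Ccl8 belongs with Ccl2 and Ccl7 to the group of monocyte chemotactic proteins. It had 16, 40 and 48 tags in the EGFP⁻ libraries and 21, 21 and 141 tags in the EGFP⁺ libraries. A single library, EGFP⁺ replicate 3, stood above the other 5, among which the groups overlapped. The means were 30.8 ± 13.5 CPM and 59.3 ± 65.1 CPM (SD, n = 3), and the log2 fold change of 0.95 (SE 0.516, 95% interval -0.13 to 2.04) had an adjusted p of 0.255 in edgeR's quasi-likelihood test. Without EGFP⁺ replicate 3 the log2 fold change was -0.50, so that the direction came from that library. With pair 2 left out and the replicate block, Ccl8 was called higher (1.36, adjusted p 0.000298).

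**Figure D1:**
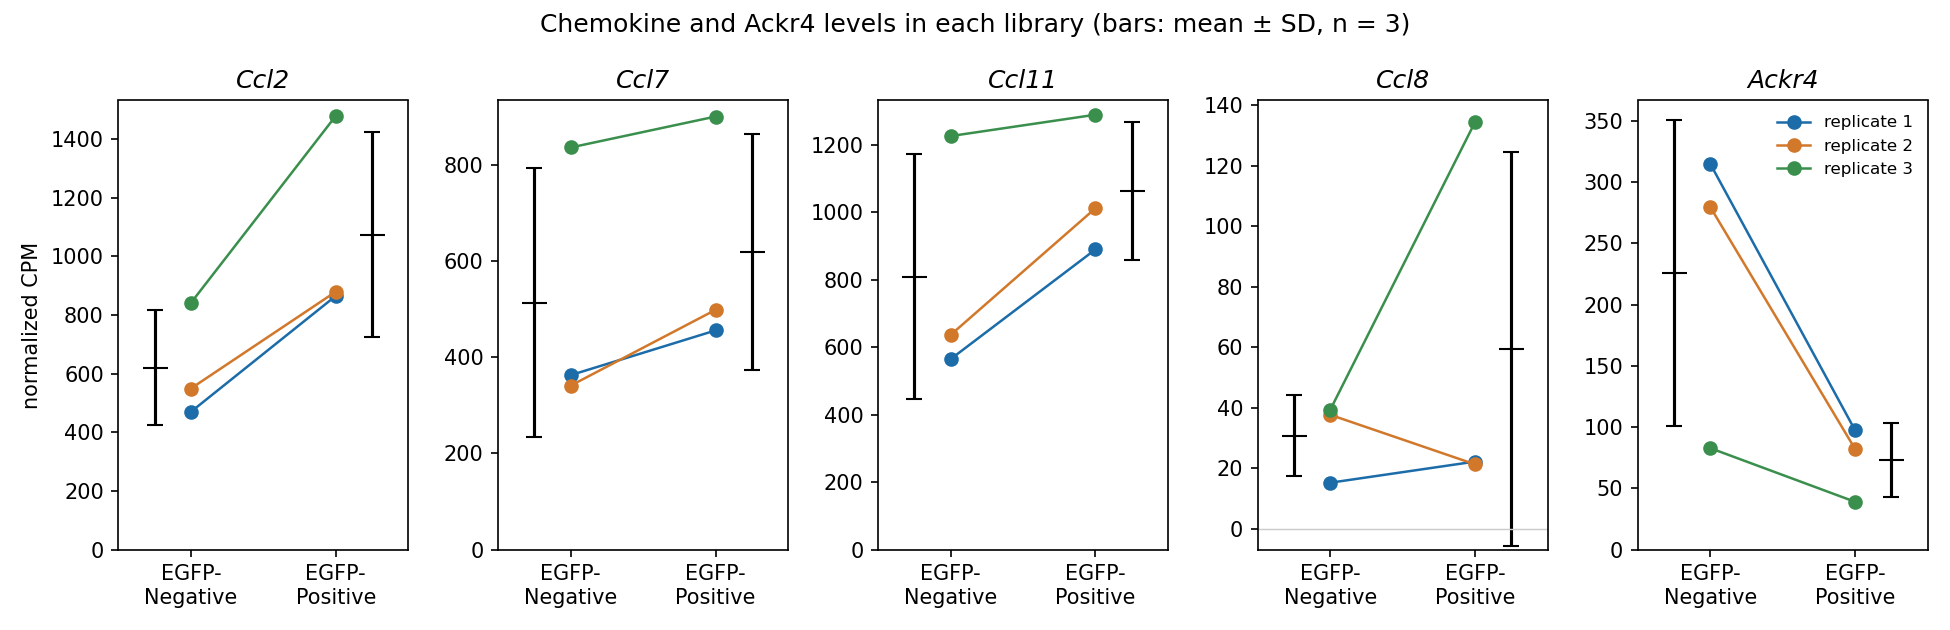
Normalized CPM of Ccl2, Ccl7, Ccl11, Ccl8 and Ackr4 in each library (points), with libraries of the same replicate number joined by a line, and the mean ± SD of each group beside them (n = 3). Replicate 3 was the highest of its group for all 4 chemokines and the lowest for Ackr4, and for Ccl2 all 3 lines run upward, from 470, 549 and 841 CPM to 865, 879 and 1478 CPM.

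Replicate 3 was high in both groups. For Ccl2 it was 1.65 times the mean of replicates 1 and 2 in EGFP⁻ cells and 1.70 times in EGFP⁺ cells. The same ratios were 2.38 and 1.89 for Ccl7, 2.04 and 1.36 for Ccl11, and 1.49 and 6.17 for Ccl8, while the median over all tested genes was 0.995 and 0.997. Replicate 3 was at least 1.5 times both other libraries of its group, in both groups, for 2 of the 4 chemokines (Ccl2 and Ccl7) and for 0.568% of all tested genes, by a rule chosen after the values were seen. Together the 4 genes took 0.140%, 0.154% and 0.306% of the tags of EGFP⁻ replicates 1 to 3 and 0.201%, 0.232% and 0.380% of those of EGFP⁺ replicates 1 to 3. The share was higher in the EGFP⁺ library of every same-numbered pair, while the ranges of the groups overlapped. Red-cell genes were also high in EGFP⁻ replicate 3 (371 tags), as given below. In EGFP⁺ replicate 3 they summed to 20 tags, close to the 18 tags of EGFP⁺ replicate 1. What sets replicate 3 apart was not tested.

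Deviations of same-numbered libraries from their group means were positively correlated across genes, at 0.209 to 0.270. The labels do not say that a number is a mouse, so the pairing is an assumption. Under it, libraries were also compared as pairs, with the replicate block. Within pairs, 3 of the 4 chemokines (Ccl2, Ccl7 and Ccl11) were higher in EGFP⁺ cells in all 3 pairs and 0 were lower in all 3, against 23.5% of all tested genes higher and 25.3% lower. The log2 difference of Ccl2 was 0.88, 0.68 and 0.81 in pairs 1 to 3, that of Ccl11 was 0.65, 0.67 and 0.07, and that of Ccl7 was 0.33, 0.54 and 0.11, whereas Ccl8 differed in sign between pairs, with 0.49, -0.77 and 1.72. Taking an adjusted p under 0.05 alone, a rule added after the data were seen, the replicate block put 2 chemokines (Ccl2 and Ccl11) among the higher genes and 0 among the lower, beside 9.33% and 11.2% of all tested genes.

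For Ccl2, the replicate block left the log2 fold change at 0.79 and narrowed its SE to 0.136 (adjusted p 9.2e-06 in edgeR's quasi-likelihood test). With pair 1, 2 or 3 left out it was 0.73, 0.83 or 0.75, with an adjusted p of 0.00133, 0.00100 or 2.8e-05. The paired estimate for Ccl11 was 0.46 (SE 0.141, adjusted p 0.0132), and those for Ccl7 (0.32, adjusted p 0.105) and Ccl8 (0.74, adjusted p 0.0588) stayed over the threshold on p. With the replicate block, Ccl11 was over it too when pair 1 (0.35, adjusted p 0.203) or pair 2 (0.34, adjusted p 0.335) was left out, and under it without pair 3 (0.64, adjusted p 0.000583). All 4 were under 2-fold with the replicate block, so none was called.

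The remaining chemokines were too low to test. Ccl3 and Ccl4, which macrophages and lymphocytes make in quantity, had 0, 1 and 0 tags and 1, 3 and 2 tags in the EGFP⁻ libraries, and 0, 0 and 0 tags and 0, 0 and 2 tags in the EGFP⁺ libraries. Ccl5, a product of T and NK cells among others, had 3, 6 and 6 tags against 1, 2 and 1 tags, with no overlap. In a fit without a filter, its log2 fold change was -1.62 (SE 0.950, adjusted p 0.364 in edgeR's quasi-likelihood test). That of Ccl4 was -1.26 in the same fit (adjusted p 0.658), and neither was called. Taking 3 tags as the floor, which stood at 2.56 to 2.93 CPM, Ccl3 and Ccl4 were at or under it in all 6 libraries and Ccl5 in all but EGFP⁻ replicates 2 and 3. A difference between the groups in Ccl3 or Ccl4 was not detectable at this depth.

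Ccl19, a ligand of Ccr7 made by stromal cells of lymphoid tissue, had 8, 3 and 22 tags in the EGFP⁻ libraries and 0, 3 and 3 tags in the EGFP⁺ libraries. It did not reach the filter. In a fit without a filter its log2 fold change was -2.17 (SE 0.676, adjusted p 0.0142 in edgeR's quasi-likelihood test over 20327 genes), which met the rule, as did 767 of these genes in that direction and 427 in the other, and in a fit of the 13494 genes with at least 10 tags over the 6 libraries it was -2.19 with an adjusted p of 0.0619, which did not. Most of its tags lay in EGFP⁻ replicate 3. Cx3cl1 had 0, 3 and 9 tags against 1, 5 and 6 tags, so the groups overlapped. Without a filter its log2 fold change was 0.21 (adjusted p 0.910 in edgeR's quasi-likelihood test).

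Ccl2, Ccl7, Ccl11 and Ccl8 lie in one gene cluster. In GENCODE M21 (GRCm38, the build called mm10) they are on the plus strand of chromosome 11, with Ccl2 at chr11:82035571-82037453, Ccl7 at chr11:82045712-82047525, Ccl11 at chr11:82057823-82062955 and Ccl8 at chr11:82115185-82116799. The span of 81.2 kilobases from Ccl2 to Ccl8 holds 5 protein-coding genes, the fifth being Ccl12 at chr11:82101845-82103400. Ccl12 had 2, 2 and 2 tags in the EGFP⁻ libraries and 0, 3 and 7 tags in the EGFP⁺ libraries, so neighbours in one cluster stood at very different tag numbers. The low genes Ccl5, Ccl3 and Ccl4 lie 1.41 megabases further along the same chromosome, Ccl19 lies at chr4:42754525-42756577, and Cx3cl1 at chr8:94772009-94782427.

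**Figure D2:**
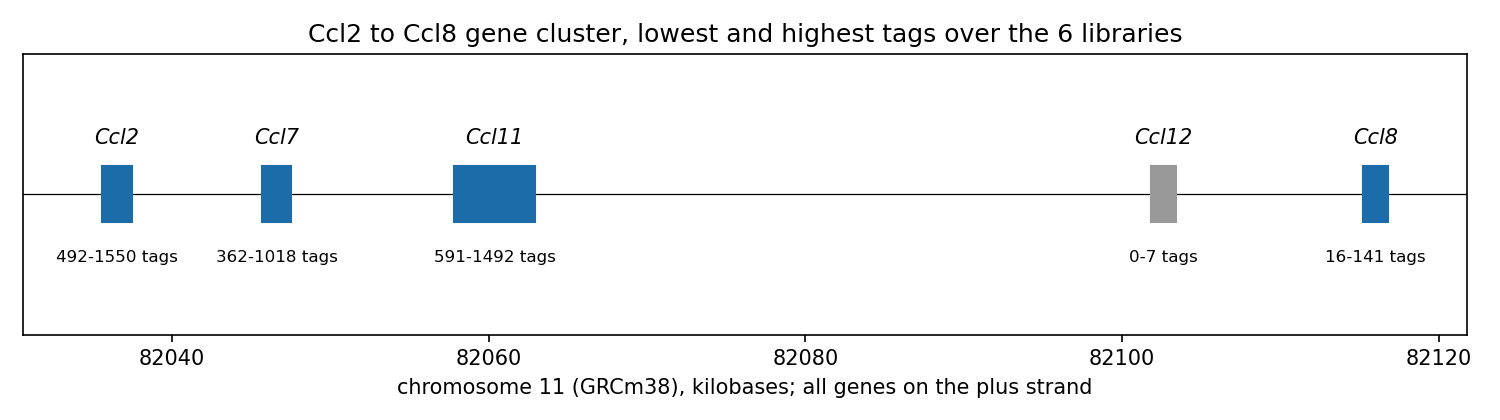
Map of the Ccl2 to Ccl8 cluster on chromosome 11 (GRCm38, horizontal axis in kilobases), with genes drawn to scale, tested chemokines in blue and Ccl12 in grey, and the lowest and highest tag count over the 6 libraries under each gene. Ccl2 ranged from 492 to 1550 tags and Ccl12 from 0 to 7 tags.

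The 4 detected genes are related in sequence, so it was checked whether their tags could be confused. Between Ccl7, Ccl11 and Ccl8 the coding sequences were 63.3% to 66.3% identical, and that of Ccl2, which is longer (447 against 294 bases), was 46.9% to 48.0% identical to them over the aligned length, gaps counted. The longest run shared between any pair of Ccl2, Ccl7, Ccl11, Ccl8 and Ccl12 in the alignments was 21 bases. No 50-base window in the first 300 bases of the transcripts of Ccl2, Ccl7, Ccl11 or Ccl8 occurred in a transcript of another gene. For Ccl19, 136 of 339 such windows were shared with other genes (Ccl19-ps1, Ccl19-ps3, Gm12407 and Gm2564), so its tags are uncertain where mapping could split them. The stretches of the coding sequences that follow, copied from the GENCODE M21 transcripts, show the feature that names the family. They run across the junction of exons 1 and 2 of each gene, on the plus strand, with the cysteine codons in capitals.
Ccl2: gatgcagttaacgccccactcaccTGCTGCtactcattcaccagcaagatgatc
Ccl7: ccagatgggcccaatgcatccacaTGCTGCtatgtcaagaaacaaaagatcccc
Ccl11: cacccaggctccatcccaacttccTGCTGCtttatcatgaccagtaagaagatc
Ccl8: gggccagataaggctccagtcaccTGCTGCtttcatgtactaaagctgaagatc
Cx3cl1: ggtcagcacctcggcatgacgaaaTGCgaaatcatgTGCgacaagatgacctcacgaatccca
In GRCm38 these span chr11:82035737-82036535, chr11:82045856-82046567, chr11:82058036-82061725, chr11:82115306-82116085 and chr8:94772334-94778089, introns included. The cysteine codons of the CC genes are adjacent, at codons 34 and 35 in Ccl2, 33 and 34 in Ccl7, and 32 and 33 in Ccl11 and Ccl8, whereas in Cx3cl1 they are codons 32 and 36 with 3 codons between them.

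Genes whose levels followed each chemokine most closely over the 6 libraries were sought among the 5062 other genes that averaged 30 tags or more, for all 4 tested members, which was decided after it was seen that none was called. Likeness was the root-mean-square difference of centred log2 CPM. Among those close to Ccl2 were Odc1 (0.150) and Nsg1 (0.166). The nearest to Ccl7 were Cdr2l (0.158), Epdr1 (0.200) and its neighbour Ccl11 (0.202), and the nearest to Ccl11 were Trappc4 (0.106), Arl2bp (0.112) and Atf5 (0.132). Ccl8 had no gene so close, with Wnt4 (0.361), Sdf2l1 (0.505) and Il6 (0.562) the nearest. Some of the nearest genes had few tags. Trappc4 had 20, 20 and 44 tags in the EGFP⁻ libraries and 28, 33 and 39 tags in the EGFP⁺ libraries. Cdr2l had 23, 21 and 52 against 28, 28 and 46 tags. How far counting error moves these ranks was not tested.

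Other CC chemokine genes, and the genes of CC and CX3C receptors, were mostly low. Of 15 other CC chemokine genes 12 had a row, and 0 were tested, the highest count of any of them in a library being 8 tags. Of 12 CC and CX3C receptor genes 5 had a row and 1 was tested, Ccrl2, a receptor-like protein that binds chemerin, with 88, 130 and 101 tags in the EGFP⁻ libraries and 85, 123 and 104 tags in the EGFP⁺ libraries (log2 fold change 0.12, SE 0.197, adjusted p 0.761). Cx3cr1, the fractalkine receptor, had 4, 7 and 3 tags against 6, 4 and 4 tags, and Ccr2 had at most 2 tags in a library.

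Ackr4, an atypical receptor that takes up Ccl19, Ccl21 and Ccl25 without G-protein signalling, fell in EGFP⁺ cells. It had 330, 297 and 101 tags in the EGFP⁻ libraries and 92, 81 and 41 tags in the EGFP⁺ libraries. The means were 226 ± 125 CPM and 72.9 ± 30.3 CPM (SD, n = 3), and the log2 fold change was -1.63 (SE 0.367, 95% interval -2.40 to -0.86, adjusted p 0.00418 in edgeR's quasi-likelihood test). Replicate 3 was the lowest of its group in both, at 0.279 and 0.435 times the mean of replicates 1 and 2, so that EGFP⁻ replicate 3 reached into the EGFP⁺ range. The call was kept in all 6 fits that left out a library (-2.05 to -1.32) and lost in DESeq2 (-1.62, adjusted p 0.101). Ackr1 and Ackr2, the other atypical receptors listed, had at most 5 tags in a library.

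Of 4 proteases that cut these chemokines, 3 were tested and 1 rose. Mmp2, a gelatinase that trims Ccl7, had 1122, 963 and 972 tags in the EGFP⁻ libraries and 2525, 2297 and 2242 tags in the EGFP⁺ libraries, with no overlap (log2 fold change 1.36, SE 0.178, adjusted p 2.3e-05). The sheddases of fractalkine, Adam10 and Adam17, were not called, with log2 fold changes of 0.35 (SE 0.164, adjusted p 0.176) and 0.65 (SE 0.203, adjusted p 0.0340, under 2-fold). Dpp4, which trims the start of several chemokines, had 10, 7 and 25 tags against 3, 1 and 4 tags and was not tested.

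Of 8 genes of lymphoid tissue stroma 6 were tested, and 2 rose in EGFP⁺ cells. Vcam1, an adhesion molecule for leukocytes, had 146, 231 and 284 tags in the EGFP⁻ libraries and 351, 546 and 475 tags in the EGFP⁺ libraries (log2 fold change 1.22, SE 0.204, adjusted p 0.000311). Cxcl13, a B-cell attractant, had 770, 679 and 414 tags against 1434, 1756 and 684 tags, with replicate 3 the lowest of both groups (log2 fold change 1.21, SE 0.300, adjusted p 0.00883). The call of Cxcl13 was lost without EGFP⁻ replicate 3 (0.92), without EGFP⁺ replicate 2 (0.94), with pair 2 left out and the replicate block (0.98), in DESeq2 (1.22, adjusted p 0.131) and in a test against a 1.5-fold change (adjusted p 0.0908). Ccl21a, a further Ccr7 ligand, had at most 4 tags in a library, and 145 of the 251 windows of 50 bases at its start were shared with Ccl21b and other genes.

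Ccl2 and several other chemokine genes are textbook targets of NF-kB, and Irf1 is an interferon-induced factor. Of 11 NF-kB and Irf1 genes all were tested and 0 were called, with a median log2 fold change of 0.27. Single genes of this list were named after their values were seen. The log2 fold change was 0.99 for Tnfaip3 (SE 0.176, adjusted p 0.000596 in edgeR's quasi-likelihood test). Among the genes whose symbols begin with Nfkbi, it was 0.73 for Nfkbia (SE 0.189, adjusted p 0.0116 in the same test). Both were under 2-fold. For Nfkbie and Nfkbib it was 0.58 (adjusted p 0.114) and 0.23 (adjusted p 0.591), and for Nfkbiz it was -0.41 (SE 0.163, adjusted p 0.107). Irf1 had one of -0.56 (SE 0.198, adjusted p 0.0669).

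Marker genes of several cell types differed between the groups. Of 9 fibroblast markers, all tested, 2 rose in EGFP⁺ cells (Col3a1 and Pdpn), and their summed level was 22955 CPM in EGFP⁻ and 35499 CPM in EGFP⁺ cells, with Dcn the most abundant. The higher sum came mostly from Dcn (12085 against 19217 CPM) and Col3a1 (4368 against 9008 CPM), whereas Lum and Vim had log2 fold changes of -0.64 (adjusted p 0.0378) and -0.27 (adjusted p 0.384), not called. Both calls, of Col3a1 and Pdpn, were lost without EGFP⁻ replicate 1 (log2 fold change 0.83 and 0.94) and when scaled by library total (0.96 and 0.98), that of Pdpn also without EGFP⁺ replicate 1 (0.97), and that of Col3a1 also in a test against a 1.5-fold change (adjusted p 0.0651). With the replicate block and pair 1 left out, both were again under 2-fold (0.84 each). Of 7 markers of pericytes and smooth muscle, 6 fell (Rgs5, Notch3, Des, Myh11, Acta2 and Cnn1), and their summed level was 3687 CPM against 477 CPM over the list, with Rgs5 the most abundant. The other marker, Kcnj8, had a log2 fold change of 0.71 (adjusted p 0.0394, under 2-fold) and was higher in all 3 pairs. The enteric glia marker Gfap fell, from 22, 23 and 26 tags in the EGFP⁻ libraries to 1, 0 and 1 tags in the EGFP⁺ libraries. In bulk libraries fewer cells of a type and less RNA per cell cannot be told apart, and the part of these marker differences in the chemokine levels was not tested.

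Cells that the gate removes left few tags, and the only one of their markers tested was the epithelial gene Lgals4. It fell from 29, 25 and 40 tags to 7, 10 and 18 tags (log2 fold change -1.26). In edgeR's quasi-likelihood test the call was lost without EGFP⁻ replicate 3 (-1.14, adjusted p 0.0616), EGFP⁺ replicate 1 (-1.02, 0.0739) or EGFP⁺ replicate 2 (-1.16, 0.0654). It was also lost with pair 1 left out and the replicate block (-1.06, 0.0669), and in a test against a 1.5-fold change (0.111). The fall stayed over 2-fold in all of these fits, so the call was lost on p alone. Epcam had at most 1 tag. Macrophage and monocyte markers summed to 21, 47 and 35 tags in the EGFP⁻ and 20, 17 and 10 tags in the EGFP⁺ libraries, with Cd68 the most abundant and Ptprc (CD45) at 1, 2 and 7 against 0, 3 and 0 tags. T and NK cell markers, led by Nkg7, summed to 3, 10 and 13 against 1, 2 and 1 tags. Neutrophil markers, led by S100a8, summed to 4, 7 and 7 against 23, 7 and 12 tags, and endothelial markers, led by Prox1, to 8, 5 and 12 against 2, 7 and 8 tags. Red-cell genes, led by Hbb-bs, summed to 95, 0 and 371 against 18, 2 and 20 tags, with EGFP⁻ replicate 3 the highest.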

How the data were processed

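Per the labels and the study's methods, the authors trimmed reads with cutadapt 1.18, mapped them with Bowtie2 2.2.5 to mm10 transcripts in one orientation, used R 3.5.1, and deposited tag counts per gene symbol without normalization. How tags that map to several genes were counted, and whether molecular identifiers were used, is not given in the sources used here, so floors (3 tags) cover counting error only. Here counts were scaled by TMM and tested with edgeR 4.0.16 in R 4.3.3 (DESeq2 1.42.0 as an alternative), as described in the report. Intervals are 95%. Library sizes were totals over the tested genes, TMM was computed after the filter, and the dispersion estimates were not robust: among 16 combinations of edgeR options, all run, this one was taken because its counts of called genes equalled earlier counts from these data. The combinations called 311 to 347 genes higher and 541 to 601 lower, and 0 of the chemokines in any.

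The members and lists were chosen with earlier results of these data known. All called genes of a list were named, up to 6, except that some items are not reported here. The methods name 3 mice, and deviations of same-numbered libraries from their group means correlated at 0.231, 0.209 and 0.270 over 5064 genes, so the numbers were taken as pairs for the alternative fit with the replicate block. The labels do not say that a number is a mouse, and libraries of different numbers were not compared in this way. Log2 differences within pairs used CPM plus 2. The fit was tested on simulated data, with 50 genes changed at each size. By adjusted p under 0.05 it recovered 30 of 50 genes at a true log2 change of -1 and 42 of 50 at 1. At -2 and 2 it recovered all 50, and 11 unchanged genes also passed. The simulation used a common dispersion and no replicate effect, so it does not cover the spread of replicate 3. The alternatives were other scalings, filters, thresholds, thinning to equal depth, DESeq2, the replicate block and leaving out libraries or pairs.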

Additional observations from a re-analysis of the deposited data

How the results depend on the processing

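With all 6 libraries, Ccl2, Ccl7, Ccl8 and Ccl11 kept their direction in 10 other fits that changed the scaling, library size, filter, tool, depth or block. Over all settings, left-out libraries and pairs included, the adjusted p against no change ranged from 9.2e-06 to 0.158 for Ccl2, 0.0404 to 0.973 for Ccl7, 0.000298 to 0.702 for Ccl8 and 0.000583 to 0.765 for Ccl11. Chemokines called higher numbered 1 (Ccl2) by adjusted p alone and 2 (Ccl2 and Ccl11) with the replicate block and adjusted p alone, and 0 to 1 when a library (Ccl2 without EGFP⁻ replicate 3) or a pair (Ccl8 without pair 2) was left out. In these 2 fits, 284 of 8760 and 302 of 8471 tested genes were called higher. Across the fits that left out a library or pair, tested genes called higher numbered 230 to 315. Chemokines called lower numbered 1 (Ccl19) without a filter, where 767 of 20327 genes were. Leaving out a library or pair gave log2 fold changes from 0.49 to 1.06 for Ccl2, from 0.17 to 0.81 for Ccl11, from -0.10 to 0.79 for Ccl7 and from -0.50 to 1.36 for Ccl8, which was -0.27 without pair 3 and 1.36 without pair 2, both with the replicate block. Of all tested genes, 638 were higher by adjusted p alone, and 871 were higher and 1048 lower with the replicate block and adjusted p alone. Genes called lower numbered 256 with 10 tags required in all 6 libraries and 378 in a test against a 1.5-fold change, and 338 to 579 when a library or pair was left out. The replicate block with the fold threshold changed no call of a chemokine. Block with adjusted p alone, leaving out pairs, and library totals before the filter were chosen after seeing the data. The cause of these shifts was not tested. Fits that left out a library or pair had fewer samples. For Ccl3, Ccl4, Ccl5 and Cx3cl1, with at most 9 tags in a library, depth limits what can be compared.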
